A study of Mus musculus with 6 samples.

Results

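The genes described here encode the giant filament proteins titin (*Ttn*) and nebulin (*Neb*), the M-band proteins *Obsl1*, *Myom1*, *Myom2* and *Myom3*, and the myosin-binding proteins *Mybpc1*, *Mybpc2* and *Mybph*. They were chosen by name, with earlier results of these data known, and made up 9 of 46078 genes in the count table. All 9 passed the filter on low counts, which left 14828 genes to test. The RNA came from C2C12 cells, an immortalized mouse myoblast line that fuses into myotubes when serum is withdrawn. Cells in which *Hnrnpa2b1*, an RNA-binding protein gene, had been targeted with CRISPR-Cas9 (KO) were compared with cells wild type for *Hnrnpa2b1* (WT). Both genotypes had been differentiated for 2 days by serum withdrawal with an insulin, transferrin and selenium supplement, and 3 libraries were made of each genotype, numbered 1 to 3 (KO1, WT1 and so on). Values listed for a genotype follow that order. KO and WT clones were isolated with a cloning ring after transfection and puromycin selection, and the labels do not state which clone gave which library.

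The sarcomere, the contractile unit of striated muscle, is organized around these proteins. A titin molecule reaches from the Z-disc to the M-band and acts as a molecular spring, and nebulin runs along the actin thin filament. At the M-band the myomesins link neighbouring thick filaments, and *Obsl1* encodes a cytoskeletal adaptor that binds titin and myomesin. Myosin-binding proteins C and H sit on the thick filament, where the C forms modulate the contact of myosin with actin. *Mybpc1* encodes the slow skeletal form and *Mybpc2* the fast skeletal form.

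Total counts ranged from 33605258 to 40558740 per library, so counting error was small beside the spread between libraries, and largest for *Mybpc2*, with 41 to 676 counts. Log2 CPM (counts scaled to a common library total) correlated at 0.984 to 0.991 among the WT libraries and at 0.964 to 0.977 among the KO libraries, across genes. *Hnrnpa2b1* itself had 159, 195 and 249 CPM in the KO libraries and 225, 229 and 252 CPM in the WT libraries. The KO and WT ranges of *Hnrnpa2b1* overlapped and the difference did not pass the test (log2 fold change −0.23, standard error (SE) 0.18, edgeR adjusted p = 0.381). In the deposited TPM, explained below, *Hnrnpa2b1* had 29.5, 38.0 and 59.9 in KO and 56.6, 57.4 and 58.0 in WT. KO1 and KO2 were thus below all WT libraries and KO3 above them (log2 difference −0.49, SE 0.23, limma adjusted p = 0.171). The transcript level of *Hnrnpa2b1* therefore did not check the labels. The paper reports that knockout of the clones was checked on the protein, by immunofluorescence and Western blotting. Because RNA was taken from whole cultures, fewer fused or differentiated cells and less RNA per cell cannot be told apart in any result below. P-values set the difference between genotypes against the spread between these libraries, and speak for these libraries only, whose clones of origin are not stated.

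The promoters of the members were read from RefSeq (GRCm38.p6), from 250 bases before to 50 bases after the annotated start, to show the muscle motifs they carry. An entry was matched for 7 of the 9 genes, and *Neb* and *Myom2* had none. All 7 held an E-box, CANNTG, the motif class bound by MyoD and myogenin, on either strand, as did 72.3% of all 32851 promoters. The E-box form CAGCTG was found in *Mybpc1*, *Mybph* and *Obsl1*, and in 16.3% of all promoters. The form CACCTG was found in *Ttn*, *Obsl1*, *Myom3* and *Mybpc2*, and in 20.2% of all promoters. A motif of the MEF2 factors was found in *Ttn* and *Myom3*, and in 3.19% of all promoters. The box TATAAA was found in *Mybph*, on the strand opposite to the gene, and in 13.6% of all promoters. Like the E-box, each of these motifs was sought on either strand. The 4 windows given next are from the 2 myosin-binding genes with a CAGCTG motif, of which *Mybpc1* was called lower in KO and *Mybph* was not, and from the 2 genes with a MEF2 motif. They are written 5′ to 3′ on the strand of the gene, with the motif in capitals.
*Mybpc1*, chr10:88605222-88605251, minus strand: gagcacgaggcaCAGCTGaatttagaaagt
*Mybph*, chr1:134193357-134193386, plus strand: gacctgaccccaCAGCTGggaatggtttgc
*Ttn*, chr2:76982694-76982723, minus strand: ttctgaaaggCTAAATTTAGcactgccaat
*Myom3*, chr4:135759670-135759699, plus strand: ctcagcgctgCTATATTTAAgacggttaca
The motif started 87 bases before the start site in *Mybpc1*, 79 in *Mybph*, 166 in *Ttn* and 35 in *Myom3*. A match of letters is not a measured binding site.

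*Mybpc1* and *Myom2* were lower in KO than in WT and no member was higher, by edgeR's quasi-likelihood test at an adjusted p of 0.05 over all tested genes. Across all tested genes 22.7% passed, 12.1% higher and 10.6% lower in KO. When libraries were scaled by their totals alone, 66.2% of the genes that passed were higher, against 53.4% with TMM scaling, and the median log2 fold change of all tested genes moved from 0.03 to 0.15. In sign 5 members were lower and 4 higher, and the median log2 fold change of the 9 was −0.40. *Myom3* was lower on the deposited TPM (read abundance scaled by transcript length and library) but missed the threshold on counts. *Ttn*, *Neb*, *Obsl1*, *Myom1*, *Mybpc2* and *Mybph* passed in neither measure. The CPM below are scaled by TMM, and TPM are used where levels of different genes are compared.

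**Figure D1:**
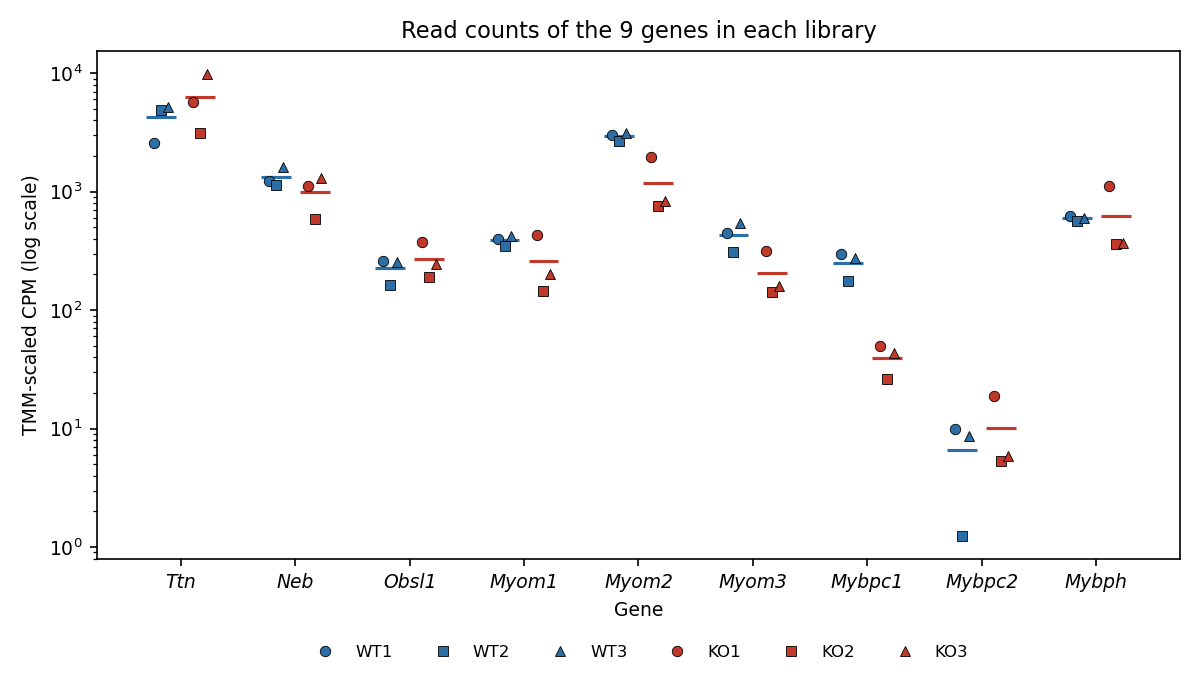
TMM-scaled CPM of the 9 genes in each library on a log axis, with each point 1 library and the bars at the group means. *Mybpc1* and *Myom2* are the genes whose KO libraries all lie below their WT libraries, and *Ttn* reaches from 3143 to 9878 CPM in KO.

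*Ttn* (ENSMUSG00000051747, GRCm38 chr2:76703980-76982547, minus strand, up to 347 exons) had 5757, 3143 and 9878 CPM in the KO libraries and 2596, 4905 and 5216 CPM in the WT libraries. KO3 was the highest library and WT1 the lowest, and KO2 lay within the WT range. Titin reads made up 0.565%, 0.338% and 1.05% of all counts in the KO libraries and 0.248%, 0.479% and 0.495% in the WT libraries. *Ttn* ranked 4th of all genes by count in KO3 and 24th in WT1. The log2 fold change of 0.56 (SE 0.46, edgeR adjusted p = 0.396, exact two-sided permutation p = 0.4) was within the spread of the libraries. It was 0.07 without KO3, 0.29 without WT1 and 0.89 without KO2 (edgeR adjusted p = 0.149). In TPM, *Ttn* was 55.2, 33.9 and 109 in KO and 45.5, 63.6 and 64.7 in WT, and the log2(TPM + 1) difference was 0.04 (SE 0.36, limma adjusted p = 0.941). The direction of the TPM difference turned to −0.40 without KO3 and −0.12 without WT1.

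The 2 measures of *Ttn* stood apart from each other by genotype. One TPM corresponded to 104, 92.8 and 90.3 CPM in the KO libraries and to 57.0, 77.2 and 80.6 CPM in the WT libraries, so the KO libraries were above all WT libraries. The log2 ratio of KO to WT in CPM per TPM was 0.43 as a difference of mean logs, at percentile 99.1 of 10116 genes with more than 1 TPM in every library, where the median was 0.0015 and the central 90% lay between −0.14 and 0.14. The other 8 members had log2 ratios of group means from −0.12 to 0.03, against 0.42 for *Ttn*. The 2 values come from different counting programs and were not tested against each other, and this ratio was noticed after the values were seen.

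**Figure D2:**
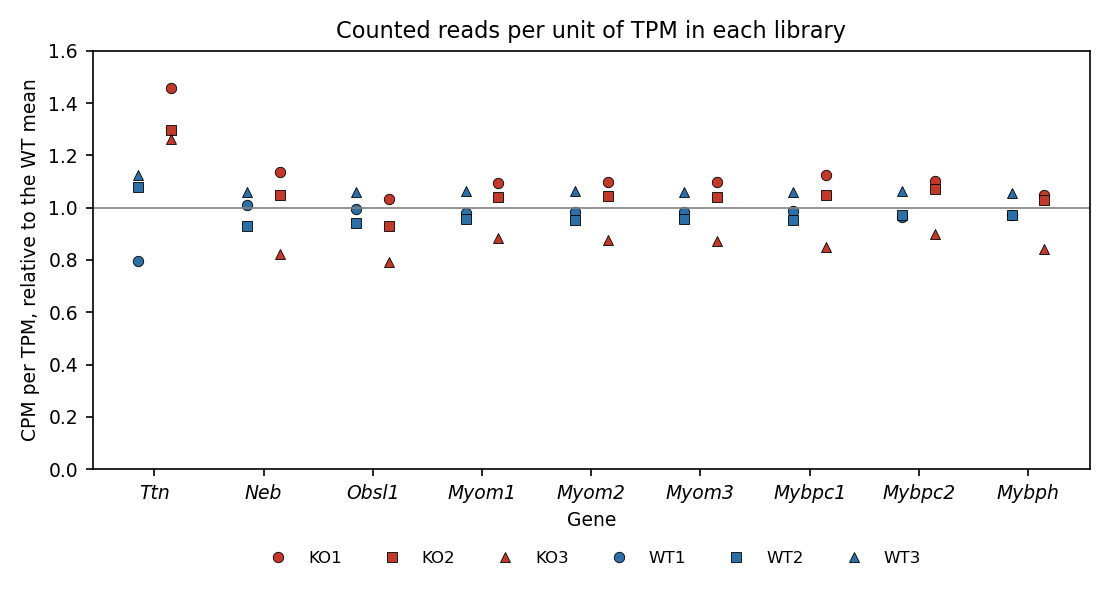
CPM divided by TPM for each member, relative to its own WT mean, with each point 1 library and a line at the WT mean. *Ttn* has its 3 KO libraries above all of its WT libraries, at 90.3 to 104 CPM per TPM in KO and 57.0 to 80.6 in WT.

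*Neb* (ENSMUSG00000026950, chr2:52136647-52378474, minus strand, up to 157 exons) had 1115, 582 and 1307 CPM in the KO libraries and 1220, 1139 and 1601 CPM in the WT libraries. KO2 was the lowest library by far and KO3 lay within the WT range. Nebulin averaged 1001 ± 375 CPM in KO and 1319.9 ± 247 CPM in WT (SD, n = 3), a log2 fold change of −0.40 (SE 0.31, edgeR adjusted p = 0.376). In TPM the log2 difference was −0.45 (SE 0.32, limma adjusted p = 0.346). Without KO2 these were −0.12 and −0.066, and without KO3 −0.63 and −0.81 (limma adjusted p = 0.0740). The ratio of the giants was given within each library as log2 of *Neb* TPM over *Ttn* TPM. It was −0.20, −0.31 and −0.49 in the KO libraries and 0.38, −0.08 and 0.20 in the WT libraries, so that the KO libraries were all below the WT libraries. The difference of −0.50 gave an exact two-sided permutation p of 0.1, the smallest that 3 libraries against 3 allow, and 0.15 after Benjamini-Hochberg adjustment over the 3 ratios tested. Computed from CPM, the difference was −0.94.

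Among the M-band genes, *Myom2* showed the clearest difference. *Myom2* (ENSMUSG00000031461, chr8:15057653-15133541, plus strand), which encodes M-protein, a myomesin typical of fast fibres, had 1956, 749.9 and 839.8 CPM in the KO libraries and 2983, 2686 and 3101 CPM in the WT libraries. The genotypes did not overlap, and KO1 was closest to WT. Of all tested genes 44.3% did not overlap in either direction. The KO libraries were all below the WT libraries in 21.6% of the tested genes and in 2 of the 9 members, which were *Myom2* and *Mybpc1*. *Myom2* was 2.47-fold lower in KO (log2 fold change −1.31, SE 0.38, edgeR adjusted p = 0.0419, exact two-sided permutation p = 0.1). The call was lost without KO2 (adjusted p = 0.0838), KO3 (0.113), WT1 (0.128), WT2 (0.0775) or WT3 (0.108), and the log2 fold change was −1.88 without KO1 (adjusted p = 0.000702). In TPM *Myom2* was 240.2, 96.8 and 129 in KO and 409, 379.6 and 394 in WT, a log2 difference of −1.44 (SE 0.30, limma adjusted p = 0.0125), a measure in which 20.5% of 11691 genes passed (8.59% higher and 11.9% lower in KO) and 3 of the 9 members did, all lower. That call was lost without WT1 (adjusted p = 0.0697) or WT3 (0.05001), or with no filter on TPM (0.0827).

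*Myom3* (ENSMUSG00000037139, chr4:135759715-135815564, plus strand), another myomesin gene, had 313, 141 and 159 CPM in the KO libraries and 446, 309.9 and 542 CPM in the WT libraries. KO1 was within 3 CPM of WT2, the lowest WT library, and the ranges overlapped only there. The log2 fold change was −1.08 (SE 0.34, edgeR adjusted p = 0.0534, exact two-sided permutation p = 0.2). Without KO1 it was −1.53 (adjusted p = 0.00318), and DESeq2 gave an adjusted p of 0.00460 on all 6 libraries. In TPM the libraries did not overlap, at 35.0, 16.7 and 22.3 in KO and 55.7, 39.9 and 62.8 in WT. The log2 difference in TPM was −1.11 (SE 0.27, limma adjusted p = 0.0233), a call lost without KO2 (0.0529), KO3 (0.0651), WT1 (0.106) or WT3 (0.0877), or with no filter on TPM (0.117). Both measures thus gave nearly the same size of difference, on either side of the threshold.

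*Myom1* (ENSMUSG00000024049, chr17:71002633-71126856, plus strand), the myomesin found in all striated muscle, had 433, 145 and 203 CPM in the KO libraries and 399, 350.0 and 422 CPM in the WT libraries. KO1 was above all WT libraries, whereas KO2 and KO3 were below them. The log2 fold change was −0.58 (SE 0.37, edgeR adjusted p = 0.272), and the log2 difference in TPM was −0.72 (SE 0.31, limma adjusted p = 0.131). Without KO1 the log2 fold change was −1.17 (edgeR adjusted p = 0.00363), and the TPM difference was −1.09 (limma adjusted p = 0.00611). Without KO2 these were −0.30 (adjusted p = 0.516) and −0.36 (0.315). In the deposited TPM files *Myom1* starts at 71019521 and *Neb* ends at 52338798, both inside the annotated gene.

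*Obsl1* (ENSMUSG00000026211, chr1:75479310-75506452, minus strand) was the M-band gene with no lower mean in KO. It had 375, 192 and 244 CPM in the KO libraries and 261, 163 and 257 CPM in the WT libraries, with KO1 highest and WT2 lowest. The log2 fold change was 0.25 (SE 0.28, edgeR adjusted p = 0.542) and turned to −0.066 without KO1. In TPM the difference was 0.35 (SE 0.24, limma adjusted p = 0.315).

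The *Myom2* share of the myomesin transcripts was lower in each KO library than in each WT library. In TPM, *Myom2* made up 73.8%, 73.8% and 71.4% of the summed *Myom1*, *Myom2* and *Myom3* level in the KO libraries and 79.1%, 81.4% and 77.6% in the WT libraries. The mean share was 73.0 ± 1.35% in KO and 79.4 ± 1.91% in WT (SD, n = 3), a difference of −6.42 percentage points (exact two-sided permutation p = 0.1, adjusted 0.15 over the 3 ratios tested). *Myom1* took 15.5%, 13.5% and 16.2% in KO and 10.1%, 10.01% and 9.97% in WT, and *Myom3* 10.8%, 12.7% and 12.3% in KO and 10.8%, 8.56% and 12.4% in WT. The *Myom1* shares did not overlap between genotypes and the *Myom3* shares did, both looked at after the values were seen and not tested. KO1, whose *Myom1* and *Myom2* CPM were nearest to WT, had the same *Myom2* share as KO2 to 3 digits.

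*Mybpc1* had the largest difference of the 9 genes. *Mybpc1* (ENSMUSG00000020061, chr10:88518279-88605152, minus strand) had 49.8, 26.0 and 43.4 CPM in the KO libraries and 296, 177 and 276 CPM in the WT libraries, from 1135 to 1778 counts per KO library and 5806 to 10243 per WT library. The lowest WT library was more than 3 times the highest KO library. *Mybpc1* was 6.29-fold lower in KO (log2 fold change −2.65, SE 0.29, edgeR adjusted p = 0.00205, exact two-sided permutation p = 0.1). The log2 fold change stayed between −2.86 and −2.42 over the 11 alternatives on counts, each of them past the threshold (adjusted p from 4.98e-24 to 0.0140). In TPM *Mybpc1* was 7.78, 4.35 and 8.95 in KO and 52.8, 32.6 and 45.7 in WT, and the log2(TPM + 1) difference was −2.50 (SE 0.26, limma adjusted p = 0.000879). Relative to the WT mean of log2 CPM it was −2.29, −3.23 and −2.49 in the KO libraries, so KO1 was not set apart for this gene as it was for *Myom1* and *Mybph*.

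*Mybpc2* (ENSMUSG00000038670, chr7:44501699-44524656, minus strand), the fast form, was the least abundant member. It had 18.9, 5.34 and 5.83 CPM in the KO libraries and 9.98, 1.25 and 8.68 CPM in the WT libraries, from 41 to 676 counts. KO1 was the highest library and WT2 the lowest, and KO2 and KO3 lay within the WT range. The log2 fold change was 0.59 (SE 0.74, edgeR adjusted p = 0.587) and −0.26 without KO1. No difference was detectable given this spread between libraries.

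*Mybph* (ENSMUSG00000042451, chr1:134193448-134201232, plus strand), which encodes myosin-binding protein H, had 1127, 361 and 371 CPM in the KO libraries and 619, 570.4 and 601 CPM in the WT libraries. The WT libraries were close together, KO1 was well above them and KO2 and KO3 were below them. The group means were therefore near each other, at 620 ± 439 CPM in KO and 597 ± 24.6 CPM in WT (SD, n = 3; log2 fold change 0.05, SE 0.42, edgeR adjusted p = 0.937). Without KO1 the log2 fold change was −0.71 (edgeR adjusted p = 0.0113) and the TPM difference −0.60 (limma adjusted p = 0.0484). *Adora1*, which overlaps *Mybph*, had 296 to 877 counts per library, and whether counting used the strand is not stated in the sources used here.

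Among the myosin-binding genes, *Mybph* supplied most of the TPM in every library. *Mybpc1* made up 1.05%, 1.78% and 2.89% of the 3 genes in the KO libraries and 10.8%, 7.52% and 10.5% in the WT libraries, a share looked at after the values were seen and not tested. *Mybpc2* made up 0.432%, 0.381% and 0.391% in KO and 0.397%, 0.0554% and 0.351% in WT. The *Mybpc2* share did not differ beyond the spread (difference 0.134 percentage points, exact two-sided permutation p = 0.3, adjusted 0.3). Without WT2 the difference was 0.0272 points, and computed from CPM it was 0.701 points (exact two-sided permutation p = 0.1).

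**Figure D3:**
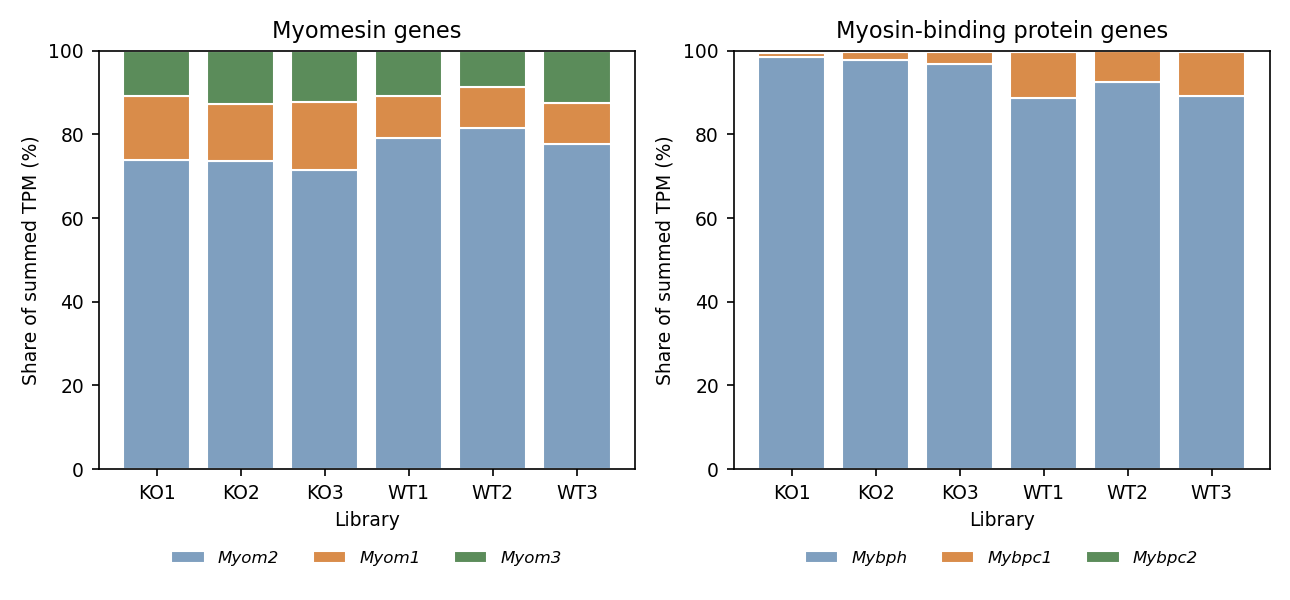
Share of the summed TPM (%) in each library, as stacked bars from 0 to 100, of the 3 myomesin genes on the left and of the 3 myosin-binding genes on the right. *Myom2* takes 71.4% to 73.8% of the myomesins in KO and 77.6% to 81.4% in WT, and *Mybpc1* takes 1.05% to 2.89% of the myosin-binding genes in KO and 7.52% to 10.8% in WT.

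**Figure D4:**
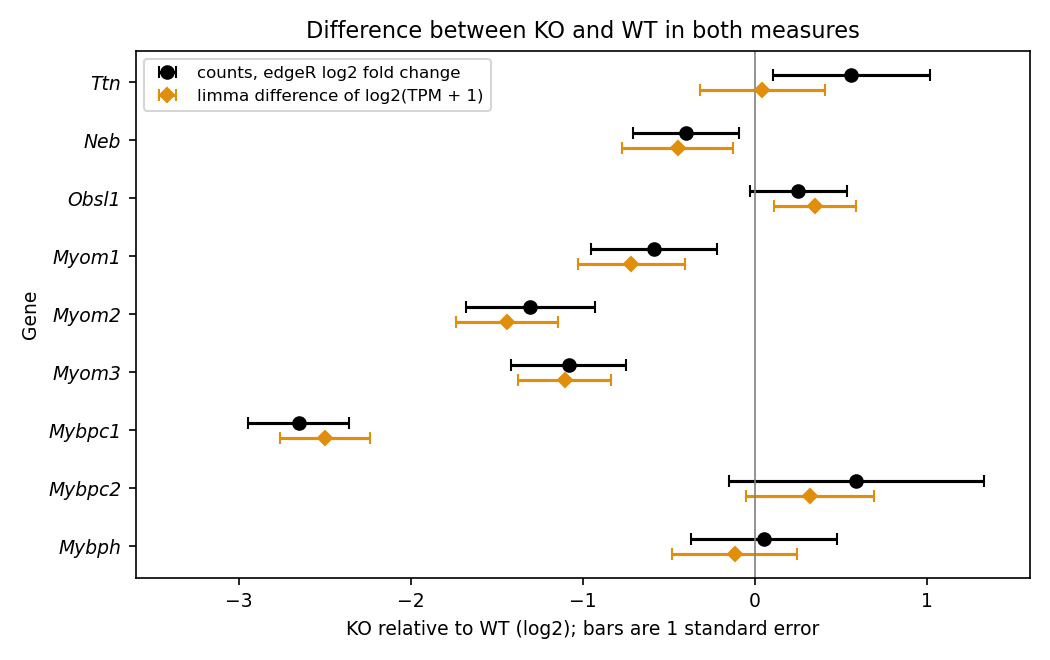
Difference between KO and WT for each gene on the log2 scale, from counts by edgeR and from log2(TPM + 1) by limma, with bars of 1 standard error. *Mybpc1* lies farthest below 0 in both measures, at −2.65 and −2.50, followed by *Myom2* and *Myom3*.

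The KO libraries did not deviate alike. The median difference of the 9 genes from their WT mean in log2 CPM was 0.15 for KO1, −1.16 for KO2 and −0.68 for KO3. The same medians of the WT libraries were 0.05, −0.20 and 0.21. In KO1, *Ttn*, *Obsl1*, *Myom1*, *Mybpc2* and *Mybph* were above the WT mean, the last at 0.92, and *Myom2*, *Myom3*, *Neb* and *Mybpc1* below it. KO2 was below the WT mean in all members but *Mybpc2*, which was at 0.15. KO3 was 1.29 above the WT mean for *Ttn* and level with it for *Neb* (0.00), and between −0.68 and −2.49 for *Myom1*, *Myom2*, *Myom3*, *Mybpc1* and *Mybph*. The median log2 fold change of the 9 genes was −0.71 without KO1, when 5 members and 4712 of all 15409 tested genes were called. The median was −0.12 without KO2 and −0.26 without WT3. *Mybph* was called in no fit that included KO1, and *Myom1* in 1, on counts with no filter on low counts (log2 fold change −0.61, edgeR adjusted p = 0.0336).

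**Figure D5:**
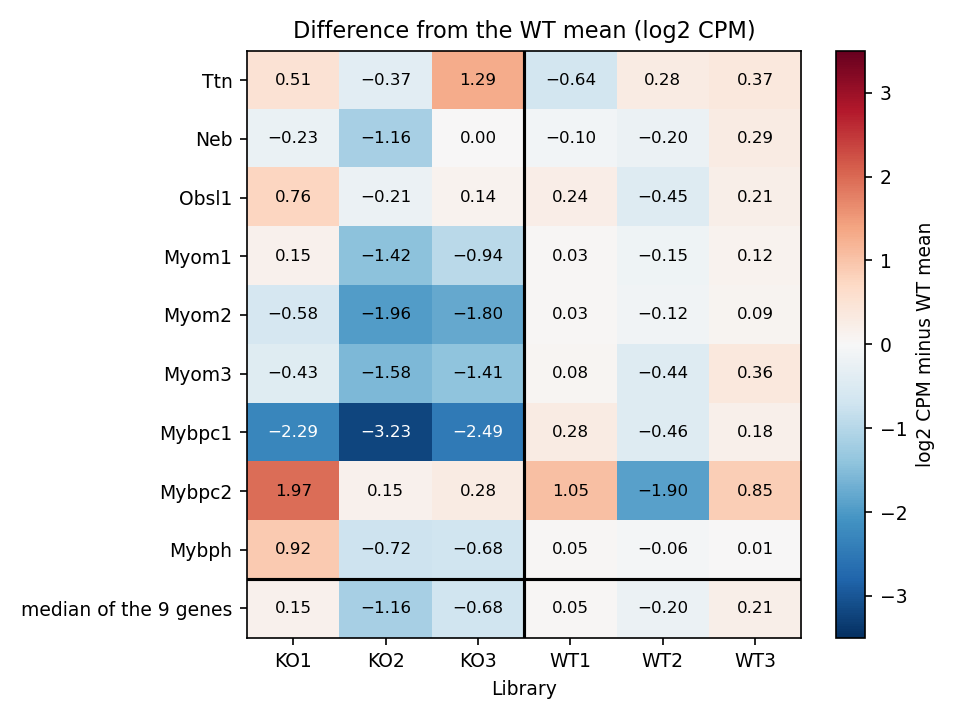
Difference of each library from the WT mean in log2 CPM, for each member and for the median of the 9 genes, with colour from lower to higher. *Mybpc1* is lower in KO1, KO2 and KO3 alike, at −2.29, −3.23 and −2.49, whereas *Mybph* is 0.92 in KO1 and about −0.7 in KO2 and KO3.

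By TPM, *Mybph* and *Myom2* led and *Mybpc2* came last in both genotypes, and the order of the others differed. In WT, *Mybph* (407 ± 23.5 TPM) and *Myom2* (394 ± 14.6 TPM) were highest and overlapped with each other but not with *Neb* (64.6 ± 8.36 TPM; SD, n = 3). *Ttn*, *Myom3*, *Myom1*, *Mybpc1* and *Obsl1* followed at group means of 57.9, 52.8, 49.7, 43.7 and 36.5 TPM, each overlapping the next, and *Mybpc2* was apart at 1.23 ± 0.885 TPM. In KO, *Mybph* (424 ± 269 TPM) and *Myom2* (155 ± 75.2 TPM) again led but the spread was wide. *Ttn*, *Neb*, *Obsl1*, *Myom1* and *Myom3* then overlapped in turn, from 66.2 to 24.7 TPM. *Mybpc1*, at 7.03 ± 2.39 TPM, was apart from *Myom3* above it and from *Mybpc2* below it.

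Relatives of these genes were compared from a list of 13, of which 10 were tested. *Lasp1*, a nebulin-repeat protein of the actin cytoskeleton, was higher in KO (59.3, 91.7 and 76.3 CPM against 30.4, 30.4 and 30.02, log2 fold change 1.32, edgeR adjusted p = 0.00299). *Mypn*, encoding the Z-disc protein myopalladin, was lower (−0.93, adjusted p = 0.0406), and so was *Myot*, encoding the Z-disc protein myotilin (1.15, 1.28 and 0.32 CPM against 25.8, 15.7 and 33.0, log2 fold change −4.76, adjusted p = 0.00193). The other 7 did not pass, and the median of the list was −0.22. The calls of *Lasp1* and *Myot* held in all 11 alternatives, whereas that of *Mypn* did not hold when KO2, KO3, WT1 or WT3 was left out, nor with libraries scaled by totals (adjusted p up to 0.156). *Mybpc3*, the cardiac form of myosin-binding protein C, had at most 0.14 CPM and was not tested.

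Of 23 partners of titin, nebulin and the M-band, 1 was higher and 4 were lower in KO, and the median log2 fold change was −0.46 with 19 of 23 lower in sign. Of all tested genes 22.7% were called and 7070 of 14828 were lower in sign, so the share of partners called was near that of all genes. *Tcap*, the telethonin gene whose product caps titin at the Z-disc, had 2.85, 1.05 and 0.85 CPM in KO and 24.0, 6.58 and 19.1 CPM in WT (log2 fold change −3.39, edgeR adjusted p = 0.00927). Its log2 fold change ranged from −4.12 to −3.03 over the alternatives on counts. *Actn2*, an alpha-actinin gene of the Z-disc, fell by 2.94 (adjusted p = 0.00212), *Trim55*, a titin-associated ubiquitin ligase gene, by 1.76 (0.00996), and *Smyd1*, a myosin-binding methyltransferase gene, by 1.54 (0.00790) on the log2 scale. *Fhl1*, a LIM-domain protein gene, was higher (log2 fold change 1.0002, adjusted p = 0.0132), and its call was the one of the 5 lost in any alternative, without WT1 or WT3 (up to 0.0612). DESeq2 called 9 genes of this list.

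Of the sarcomeric myosins and their chaperone, 14 of 15 were tested, 1 was higher and 3 were lower, and the median log2 fold change was −1.25 with 12 of 14 lower in sign, beside the same shares of all tested genes. *Myh7b*, a slow-type heavy chain gene, fell by 2.21 (edgeR adjusted p = 0.00257), *Myl1*, an essential light chain gene, by 2.39 (0.0297) and *Unc45b*, the myosin chaperone gene, by 0.93 (0.0275) on the log2 scale. *Myl2*, a regulatory light chain gene, was higher with a wide range (82.7, 3.73 and 12.4 CPM in KO and 0.91 to 1.40 CPM in WT, log2 fold change 4.77, adjusted p = 0.0204, and 2.74 without KO1). Embryonic myosin heavy chain *Myh3* had 4146, 1007 and 1423 CPM in KO and 4474, 4589 and 5811 CPM in WT (−1.18, adjusted p = 0.126). The count of calls in this list was 12 without KO1 and 1 without WT1 or WT3. The list's median difference from the WT mean was −0.19 for KO1, −1.92 for KO2 and −1.83 for KO3, so KO1 was nearest to WT here too. Of the calls in this list, that of *Myh7b* held in all 11 alternatives. Those of *Myl1* and *Unc45b* did not hold when KO2, KO3, WT1 or WT3 was left out (adjusted p up to 0.102 and 0.1095) and that of *Myl2* without WT1, WT2 or WT3 (up to 0.0880). The log2 fold change of *Myl1* ranged from −3.47 to −1.99 over these alternatives.

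Some single markers of the culture's cell states passed the threshold, and their part in the values above was not tested. Of 6 myoblast genes, *Pax7* (1.52), *Myod1* (0.99) and *Cdh15* (0.70) were higher and *Myf5* (−1.50) was lower in log2 fold change (edgeR adjusted p from 0.0141 to 0.0303), and each of these calls was lost without WT1 or WT3, that of *Pax7* also without KO2, *Cdh15* without KO3 and *Myf5* without KO3 or WT2. Of 8 genes of differentiating muscle, *Mef2c*, which encodes a MEF2 factor, was lower (log2 fold change −4.40, adjusted p = 0.0169, and 0.0556 without WT3), with 17.1, 2.34 and 1.17 CPM in KO and 80.8, 162 and 189 CPM in WT, and the median was 0.06. Over the alternatives on counts, the log2 fold change of *Mef2c* ranged from −6.35 to −3.89. *Myog*, the myogenin gene, had 1709, 1532 and 1005 CPM in KO and 1464, 1355 and 1244 CPM in WT (log2 fold change 0.06, edgeR adjusted p = 0.863). The summed level of the 8 differentiation genes was 5684 to 15757 CPM in KO, highest in KO1, and 8297 to 10766 CPM in WT. None of 6 proliferation genes passed, with a summed level of 216 to 427 CPM in KO, lowest in KO1, and 223 to 298 CPM in WT. Of 5 fibroblast genes 4 were tested, all higher in sign, and *Pdgfra* was higher (1.17, adjusted p = 0.0257, and up to 0.109 without KO3, WT1, WT2 or WT3), with a summed level of 5498 to 8773 CPM in KO and 3484 to 4555 CPM in WT. Nearly all of that sum was *Col3a1*, a collagen gene that did not pass (adjusted p = 0.132). *Cebpa* of the fat list was higher (1.24, adjusted p = 0.0323) and *Kdr* of the endothelial list lower (−2.15, 0.0363). Both calls were lost when KO3 or any WT library was left out, and that of *Cebpa* also without KO2 (adjusted p up to 0.111 and 0.128). Markers of fat, endothelial, macrophage and blood, glial and cardiac cells summed to at most 27.8, 2.05, 3.67, 1.37 and 19.997 CPM, and *Adipoq*, *Plin1*, *Fabp4*, *Pecam1*, *Adgre1*, *Nppa* and *Myl7* had at most 3 counts in any library.

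The gene with the most similar profile to a member was found by Pearson's r of log2 CPM over the 6 libraries, among 5368 genes. These correlations are descriptions over libraries that fall into 2 genotypes. *Myom2* was closest to the slow myosin heavy chain gene *Myh7* (r = 0.997), *Mybpc1* to *Clasp2* (0.996) and *Myom3* to *Slc20a2* (0.995). *Mybph* was closest to *Baiap2l1* (0.994), *Neb* to *Enpp1* (0.985) and *Obsl1* to *Preb* (0.985). *Ttn* was closest to *Tial1*, an RNA-binding protein gene (0.969), and *Mybpc2* to *Nrap*, which encodes a nebulin-related protein (0.962). Among the members, *Myom2* and *Myom3* were most alike (0.965), and *Ttn* and *Mybpc1* least (−0.294), with 0.450 between *Ttn* and *Neb*.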

How the data were processed

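Total RNA of 6 cultures was sequenced. The submitters' processing notes name FastQC, Trim Galore, STAR, featureCounts, StringTie and Salmon. The authors deposited raw counts per gene, and TPM per gene from StringTie. The notes name mm9 and the methods GRCm39, but 91.1% of 45137 shared genes had the same start or end as in GRCm38 (GENCODE M21), whose coordinates are given. Counts were tested in R 4.3.3 with edgeR 4.0.16 (filterByExpr, TMM, quasi-likelihood test, genotype as the only term), and log2(TPM + 1) of genes with at least 1 TPM in at least 3 libraries with limma 3.58.1 (trend). P-values were Benjamini-Hochberg adjusted over all tested genes, with a threshold of 0.05. TPM of 74 repeated identifiers were summed. SE is the absolute log2 fold change divided by the square root of the F statistic. On simulated KO and WT counts edgeR recovered 98% of 100 genes changed by 1 in log2, with 10 false calls among 14522 genes. Both simulated genotypes were drawn from the WT means, with the same fixed spread for every gene, not estimated from these libraries. That recovery therefore checks the code and does not give the power for the members, whose SE on counts reached 0.74.

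The members and lists were chosen with earlier results of these data known. Named genes were the 9 members, *Hnrnpa2b1*, all genes of the other lists past the threshold (up to 4 each way), *Mybpc3*, *Tcap*, *Myog*, *Myh3*, and each member's closest profile (mean log2 CPM of at least 5). Alternatives were DESeq2 1.42.0, other scalings, filters and pseudocounts, a replicate block, and leaving out each library. Exact permutation tests of 3 libraries against 3 cannot give a p below 0.1. Some items that this rule names are not reported here.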

Additional observations from a re-analysis of the deposited data

How the results depend on the processing

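*Mybpc1* kept its direction and its call in all 11 alternatives on counts and all 9 on TPM. With all genes tested, the number past the threshold was 933 to 4712 on counts when 1 library was left out, against 3361 (933 without WT1, 4712 without KO1), and 484 to 3156 on TPM, against 2394 (484 without WT1). It was 1075 without a filter on TPM. Members past the threshold numbered 1 to 5 with 1 library left out, in counts and in TPM, 4 without a filter on low counts, and 1 without a filter on TPM. In the lists, dropping the count filter gave 6 relatives, 12 partners and 11 myosins, DESeq2 gave 9 partners, and leaving out 1 library gave 4 to 12 partners and 1 to 12 myosins. Results whose sign turned ranged, with 1 library left out, from −0.26 (KO1) to 1.0002 for *Mybpc2* on counts, from −0.056 (WT2; −0.020 for KO1) to 0.57 for *Mybpc2* on TPM, from −0.71 (KO1) to 0.33 for *Mybph* on counts, from −0.60 (KO1) to 0.21 (KO2; 0.04 for KO3) for *Mybph* on TPM, from −0.066 (KO1) to 0.45 for *Obsl1* on counts and from −0.40 (KO3; −0.12 for WT1) to 0.44 for *Ttn* on TPM. The cause was not tested.

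The labels give libraries of the same number nothing in common but that number. The correlations of their deviations were 0.137, −0.116 and 0.004. KO1 correlated best with WT1, and KO2 and KO3 with a library of another number. Deviations from a mean of 3 libraries are not independent, so these correlations do not decide whether libraries were paired. With the replicate number as a block, 2520 genes passed on counts and 2103 on TPM, 7 myosins passed, *Myom3* passed (adjusted p = 0.0352) *Mybph* turned to −0.17 and the calls of *Mypn*, *Cdh15* and *Cebpa* were lost. Depth was lowest for *Mybpc2*, with 41 counts in WT2.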
